A study of Homo sapiens with 53 samples.

Results

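The sites occupied by TET1, TET2 and TET3 in DMSO-treated HEK293T cells, a human embryonic kidney line, were compared with each other by chromatin immunoprecipitation and sequencing (ChIP-seq). All intervals of the 3 deposited peak lists were used, overlapping or touching intervals of a list were merged into peaks, and peaks of different lists that overlapped by at least 1 bp were joined into sites. This gave 5951 TET1, 1233 TET2 and 14129 TET3 peaks, together 21313 of the 706206 peaks in the 10 lists of the series, and they formed 16720 sites. Each list comes from a derived HEK293T line that carries 1 Flag-tagged TET protein, kept in DMSO, the solvent, for 72 h and immunoprecipitated with an antibody against Flag. The series set these cells beside the same lines after 72 h in 30 µM of the compound BPK-25, and beside parental cells immunoprecipitated for CTCF or MBD3 in both treatments. The labels give 3 immunoprecipitates for TET1, 3 for TET3 and 2 for TET2, with an input group for each line. They call the derived cells edited and state neither the promoter that drives each tagged protein nor whether a line is 1 clone.

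The TET proteins are dioxygenases that oxidise 5-methylcytosine to 5-hydroxymethylcytosine and further products, which leads to loss of DNA methylation. TET1 and TET3 exist in forms with a CXXC domain that binds CpG-rich DNA, whereas TET2 lacks one and relies on partner proteins. CTCF is the zinc-finger protein of insulators and loop anchors, its binding is hindered by methylation at some of its sites, and MBD3 is a subunit of the NuRD chromatin remodelling and deacetylase complex.

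Each list was read from its name as pooling its group's replicates, so no value below has a spread between replicates and no test between lists was possible. Shares carry exact 95% binomial intervals (Clopper-Pearson), and these express counting error alone. An immunoprecipitation with the Flag antibody from untagged cells was not analysed here, so sites of a TET protein and sites at which the antibody or the chromatin alone gives signal cannot be told apart, above all where all 3 lines share a site. The lists also differed in sensitivity. The genome background, which is the lowest local background in a list and follows sequencing depth, was 1.85 fragments for TET1, 1.25 for TET2 and 1.70 for TET3. The weakest pileup called anywhere (the number of fragments over a summit) was 4.87, 6.40 and 4.72 times that background, so the TET2 list could not hold sites as weak as the other lists could.

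The labels were checked at the 26 regions where a DMSO TET list had a local background of 20 or more times its genome background. A CTCF or MBD3 list was that high too in 17 of them, and in 5 no CTCF or MBD3 list had a peak. In the other 4 regions all CTCF and MBD3 lists had peaks, at no more than 2.64 times their genome background. The TET1 list reached 167 times its genome background at chromosome 10, 70332139 to 70451564, the place of the TET1 gene in the human map. The TET3 list reached 877 times at chromosome 2, 74213523 to 74329312, the place of the TET3 gene. Both lists were also high at the other's gene: the TET1 list reached 374 times in the chromosome 2 region, and the TET3 list 46.3 times in the chromosome 10 region. The TET2 list had 5 peaks in the chromosome 2 region, at up to 19.1 times its genome background, and 0 in the chromosome 10 region. All 3 lists were high at chromosome 6, 74229760 to 74230962, at EEF1A1, with 425, 37.0 and 767 times for TET1, TET2 and TET3. At chromosome 19, 55625977 to 55628242, in PPP1R12C, the values were 23.8, 10.8 and 20.7 times. Neither these 4 regions nor the 5 without CTCF or MBD3 peaks included one on chromosome 4, which carries TET2. Without the 16 sites in these regions 59.2% of TET1 peaks overlapped a TET3 peak and 24.9% of TET3 peaks a TET1 peak, against 59.3% and 24.9% with them. For TET1 and TET3 the signal of 1 line at the gene of the other was seen under DMSO but hardly under BPK-25. Under BPK-25 the TET1 list had 0 peaks in the chromosome 2 region. The TET3 list reached 2.41 times its genome background in the chromosome 10 region. The TET2 list of BPK-25-treated cells still had 3 peaks in the chromosome 2 region, at up to 5.53 times its genome background. Whether lines or libraries were mixed in part was not tested, and the doubt touches every overlap between the TET lists given below. Gene names at regions are given from general knowledge of the map, since no annotation of build hg19 was used.

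Most sites were in 1 list. Of the 16720 sites, 13004 (77.8%, 95% interval 77.1 to 78.4) were in 1 list, 2926 (17.5%) in 2 lists and 790 (4.72%, 4.41 to 5.06) in all 3. Sites of TET3 alone numbered 10446, or 62.5% of all sites, followed by 2704 sites of TET1 and TET3, 2360 of TET1 alone, 198 of TET2 alone, 160 of TET2 and TET3, and 62 of TET1 and TET2. The order of the single-list classes is the order of the list lengths. In only 73 sites did a list contribute 2 or more peaks.

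Sites of 1 list were weak and narrow, and sites of all 3 lists were strong and broad. Fold enrichment, the authors' ratio of pileup to local background at the summit, had a median of 3.87 (quartiles 3.40 and 4.46) in the TET1 list at TET1-only sites and 5.79 (4.18 and 8.66) at sites of all 3 lists. For TET2 the medians were 4.18 and 5.56, and for TET3 they were 4.16 and 6.95. The authors' -log10 q separated the classes further: its median was 2.84 at TET1-only sites and 12.3 in the TET1 list at sites of all 3 lists, 2.98 and 7.63 for TET2, and 3.43 and 14.8 for TET3. Only 27 of 2360 TET1-only sites (1.14%) had a -log10 q of 10 or more, against 450 of the 790 sites of all 3 lists (57.0%). Median widths were 233, 200 and 257 bp for TET1-only, TET2-only and TET3-only sites and 500 bp for sites of all 3 lists, where the width is that of the joined peaks.

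**Figure D1:**
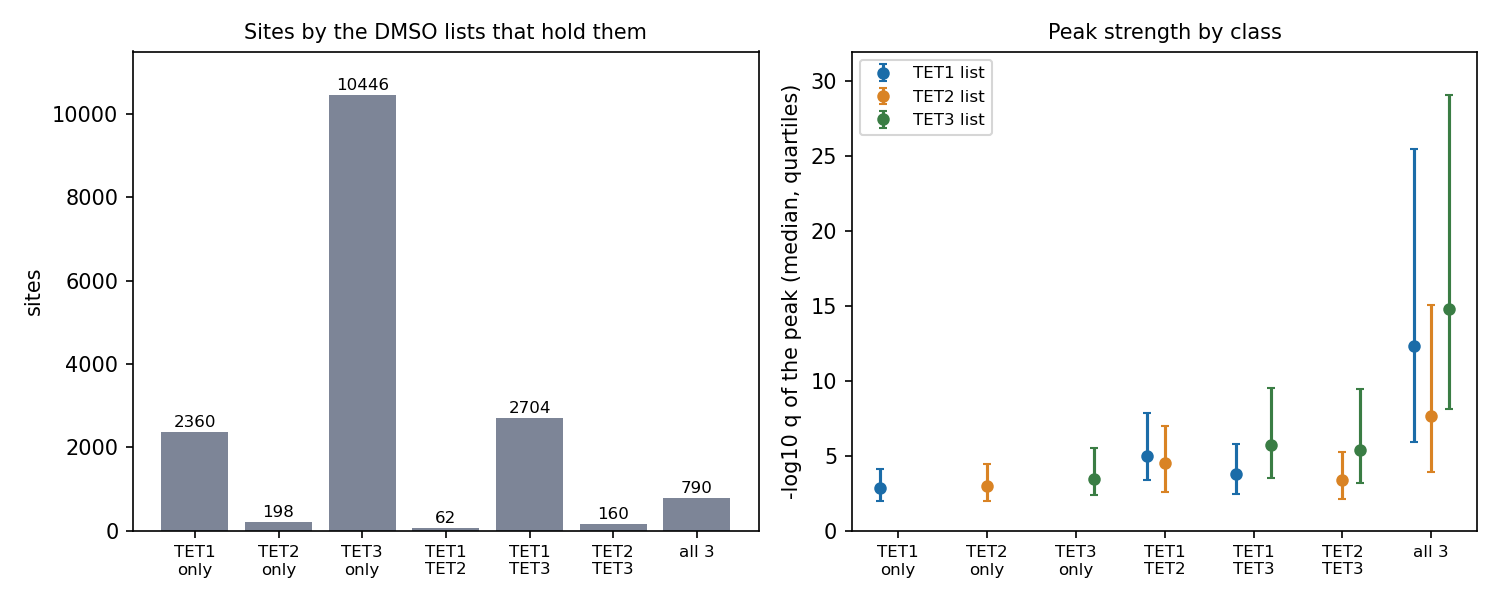
Left, the number of sites in each class, named by the DMSO lists that hold the site, as bars from 0. Right, the authors' -log10 q of the peaks in each class, with points at the median and bars from the lower to the upper quartile, coloured by list. TET3-only sites are the most numerous at 10446, and the 790 sites of all 3 lists have the highest medians, 12.3, 7.63 and 14.8 for TET1, TET2 and TET3.

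In pairs, the short TET2 list was mostly contained in the others. Of the TET2 peaks, 78.7% (76.3 to 80.9) overlapped a TET3 peak and 70.4% (67.8 to 72.9) a TET1 peak. Of the TET1 peaks, 59.3% (58.0 to 60.5) overlapped a TET3 peak and 14.4% (13.5 to 15.3) a TET2 peak. Of the TET3 peaks, 24.9% (24.2 to 25.6) overlapped a TET1 peak and 6.72% (6.32 to 7.15) a TET2 peak. For each list the share was higher with the longer of the other lists. When each list was limited to its 1233 strongest peaks, 47.6% of TET1 and 46.9% of TET3 peaks overlapped each other. TET1 and TET2 did so for 47.8% and 48.9% (46.1 to 51.7), and TET2 and TET3 for 42.3% (39.6 to 45.1) and 40.7% (38.0 to 43.5). The pairs thus differed less than over all peaks. TET2 peaks now overlapped TET1 more often than TET3, the reverse of the order over all peaks. This cut keeps every TET2 peak but only the strongest of the other lists, so list length and peak strength cannot be told apart by it.

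Overlap was higher at stronger peaks. Each list was divided into 10 parts by -log10 q. In the weakest part of the TET1 list 38.9% (34.99 to 43.0) of peaks overlapped a TET3 peak, and in the strongest part 95.3% (93.3 to 96.9) did. For TET3 peaks overlapping TET1 the same shares were 9.20% and 70.4% (68.0 to 72.8), and for TET1 peaks overlapping TET2 they were 2.68% and 73.1%. TET2 peaks overlapping TET1 went from 44.4% in the weakest part to 96.7% in the strongest but 1 and 87.9% in the strongest. That last part holds peaks of very high local background, of which the TET2 list had 56, or 4.54% of its peaks, against 0.605% in the TET1 list and 0.297% in the TET3 list.

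**Figure D2:**
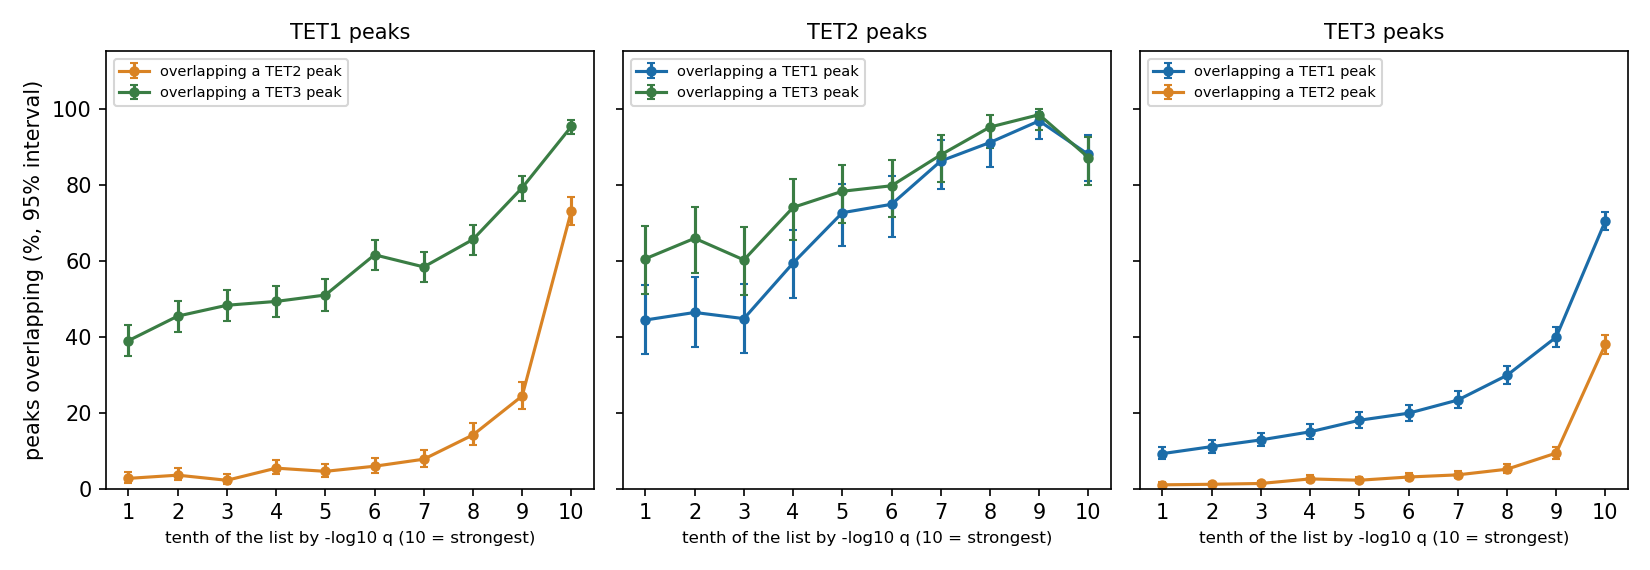
Share of the peaks of each DMSO list that overlap a peak of another DMSO list, with the list divided into 10 equal parts from the lowest to the highest -log10 q. Points are percentages and bars exact 95% intervals for counting error. TET1 peaks overlapping TET3 go from 38.9% to 95.3%, and TET3 peaks overlapping TET1 from 9.20% to 70.4%.

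With peaks of high local background left out, the 50 strongest TET1 peaks all overlapped peaks of both other lists, as did the 50 strongest TET2 peaks and 49 of the 50 strongest TET3 peaks. Of the strongest 100, this held for 97 TET1, 100 TET2 and 93 TET3 peaks. Of the strongest 1000 it held for 513, 723 and 424, and 89, 116 and 224 overlapped neither of the other lists. Among the strongest 100, 1 TET3 peak and no TET1 or TET2 peak overlapped neither of the other lists.

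The most significant sites of all 3 lists were ranked by the lowest -log10 q over the lists. The first stood apart, at 208 against 133 for the second. At chromosome 17, 1372267 to 1373072, in MYO1C, which encodes an unconventional myosin, the fold enrichment was 39.6 for TET1, 50.4 for TET2 and 64.3 for TET3, from pileups of 173, 145 and 184 fragments. Relative to the genome background these pileups were 93.6, 116 and 108 times. The lists thus differed by less than 1.5 times in pileup, both before and after it was divided by the genome background. At chromosome X, 1324222 to 1325499, in CRLF2, which encodes a cytokine receptor subunit, the fold enrichments were 29.1, 36.4 and 50.8. At chromosome 18, 11688880 to 11689369, at the start of GNAL, which encodes a G protein alpha subunit, they were 28.2, 41.8 and 40.8. These 3 sites overlapped no DMSO CTCF peak, with the nearest CTCF summit 3961, 38795 and 33675 bp away, and each had a DMSO MBD3 summit within 24 bp, at MBD3 fold enrichments of 4.57, 3.78 and 11.6. The next were chromosome 16, 77822025 to 77822491, at the start of VAT1L, with 25.2, 19.2 and 22.2, and chromosome 13, 74614293 to 74614705, with 21.6, 12.9 and 11.5. The chromosome 13 site lay 26 bp from a CTCF summit with a fold enrichment of 81.2. All 5 were also in the TET2 and TET3 lists of BPK-25-treated cells, and none was in the TET1 list of those cells. By fold enrichment the chromosome 17 site was also first in each list outside regions of high local background. Some of the 5 sites of highest fold enrichment in a list leaned to that list. Chromosome 2, 224810024 to 224810494, had 21.9 for TET1, 10.1 for TET2 and 8.76 for TET3. Chromosome 1, 67519904 to 67520487, had 24.1 for TET2, 9.91 for TET1 and 20.2 for TET3, and chromosome 11, 3181406 to 3182156, had 31.4 for TET3, 16.3 for TET1 and 13.6 for TET2. The relative pileups for TET1, TET2 and TET3 were 35.2, 17.6 and 13.6 at the chromosome 2 site. They were closer at the chromosome 1 site, at 34.1, 43.2 and 36.6, and at the chromosome 11 site, at 41.1, 53.6 and 57.2. Relative to the genome background, the local backgrounds were 1.09, 1.02 and 1.03 at the chromosome 2 site. They were 2.95, 1.02 and 1.25 at the chromosome 1 site, and 2.02, 3.21 and 1.25 at the chromosome 11 site. The part of the local background in the differences of fold enrichment was not tested.

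The strongest sites of TET1 alone and of TET2 alone were much weaker. The most significant TET1-only site, at chromosome 21, 45066589 to 45066836, had a -log10 q of 19.9 and a fold enrichment of 8.32, and the next, at chromosome X, 73770191 to 73770527, had 19.3 and 8.78. Both lay on strong CTCF peaks, with CTCF summits 10 and 19 bp away at CTCF fold enrichments of 142 and 184. The third, at chromosome 12, 12857582 to 12857865, had a fold enrichment of 8.76 and a CTCF summit 6 bp away at 131. The other 2 of the 5 did not: at chromosome 5, 147763237 to 147763712, the CTCF summit 78 bp away had a fold enrichment of 4.42, and at chromosome 6, 27203170 to 27203400, the nearest was 7245 bp away. TET2-only sites began at chromosome 17, 27046857 to 27047140, where the -log10 q was 10.8 and the fold enrichment 6.75. Of the 5 most significant TET2-only sites, those at chromosome 12, 8012601 to 8012772, chromosome 2, 114006893 to 114007078, and chromosome 19, 45988614 to 45988806, lay within 69 bp of CTCF summits of 116, 124 and 96.5. TET3-only sites were stronger, and some had a TET3 fold enrichment above the 11.5 at the chromosome 13 site of all 3 lists. Chromosome 17, 46570087 to 46570613, had a fold enrichment of 13.8 and a -log10 q of 46.7, from 59 fragments, and chromosome 1, 155099287 to 155099937, had 13.7 and 39.3. All 5 of the most significant TET3-only sites overlapped a DMSO CTCF peak, as did 4 of the 5 for TET1 and 4 of the 5 for TET2. The CTCF summits within 200 bp of these TET3-only sites had low fold enrichments: 1 at 6.60 and 1 at 5.55. At the other 3 the nearest CTCF summits lay 269, 272 and 822 bp away, and their strength is not given here.

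Sites of 2 lists were led by those of TET1 and TET3. Chromosome 14, 58706438 to 58706822, had fold enrichments of 13.4 for TET1 and 13.2 for TET3 with no DMSO CTCF or MBD3 peak, and chromosome 2, 70475931 to 70476312, just before TIA1, which encodes an RNA-binding protein, had 16.4 and 13.5 with an MBD3 summit 1 bp away. The third, at chromosome 1, 228770312 to 228770778, lies in the region of the tandem 5S ribosomal RNA genes, and had fold enrichments of 7.19 and 8.43 at pileups of 46.5 and 33.0 times the genome background. For TET1 and TET2 the most significant site was chromosome 1, 63154017 to 63154316, with 7.45 and 7.90, and for TET2 and TET3 it was chromosome 12, 69080517 to 69080843, with 6.48 and 7.34.

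Where lists shared a position, their signal was similar. Positions were taken where summits of 2 lists lay within 100 bp, and pileups were divided by the genome background of the list. At 2513 positions of TET1 and TET3 the median relative pileup was 10.8 (quartiles 8.66 and 14.6) for TET1 and 12.4 (9.43 and 17.7) for TET3, a median log2 ratio of TET1 to TET3 of -0.12 (-0.47 and 0.14). TET1 was at least 2-fold above TET3 at 9 positions, or 0.358%, and TET3 at least 2-fold above TET1 at 103, or 4.10%. At 725 positions of TET1 and TET2 the median log2 ratio of TET1 to TET2 was -0.04 (-0.28 and 0.21), and each protein was at least 2-fold above the other at 5 positions, or 0.690%. Outside regions of high local background TET1 was so at 1 position and TET2 at 5. At 793 positions of TET2 and TET3 the median log2 ratio of TET2 to TET3 was -0.06 (-0.34 and 0.26), with TET2 at least 2-fold higher at 4 positions (0.504%) and TET3 at 11 (1.39%), of which 6 were outside regions of high local background. Both members of a pair had to be called at these positions, which limits how far apart weak pileups can be. Relative pileups of TET1 and TET2 had a Spearman correlation of 0.86, those of TET2 and TET3 of 0.83 and those of TET1 and TET3 of 0.70, over positions that share their sequence and mappability.

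**Figure D3:**
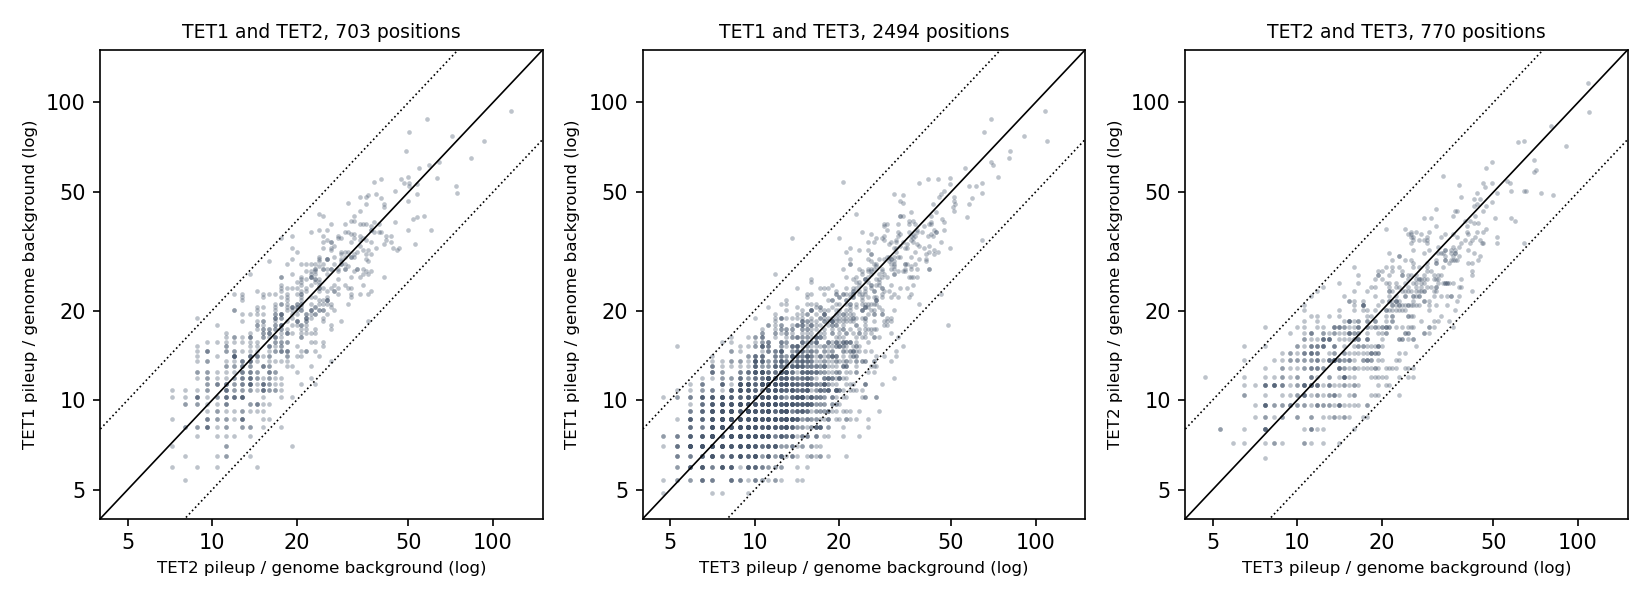
Pileup relative to the genome background at positions where summits of 2 DMSO lists lay within 100 bp, on log axes, 1 point per position, without positions of high local background. The solid line marks equal values and the dotted lines a 2-fold difference. Of the 703, 2494 and 770 positions shown for TET1 and TET2, TET1 and TET3, and TET2 and TET3, few lie outside the dotted lines, most of them positions with more TET3 than TET1.

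Summits of overlapping peaks were close, with median distances of 22 bp for TET1 and TET2, 25 bp for TET2 and TET3 and 45 bp for TET1 and TET3. Of the 790 sites of all 3 lists, 604 had all 3 summits within 100 bp of each other. The median relative pileups there were 18.9 for TET1, 19.2 for TET2 and 20.6 for TET3, and the highest of the 3 was TET3 at 278 sites, TET2 at 191 and TET1 at 135. The largest differences outside regions of high local background were modest. At chromosome 1, 212781747 to 212782164, TET3 stood at 21.2 times the genome background and TET1 at 6.49 times, a 3.27-fold difference. At chromosome 20, 57225962 to 57226511, TET1 stood at 15.2 and TET3 at 5.31 times, 2.86-fold. At chromosome 7, 2272517 to 2273034, a strong site, TET1 stood at 54.1 and TET3 at 20.6 times, 2.62-fold. These were chosen for their differences.

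Most sites carried CTCF or MBD3 peaks in the parental cells under DMSO. Of all sites, 58.9% overlapped a DMSO CTCF peak and 80.5% a DMSO MBD3 peak, 53.2% both, and 13.8% neither. Sites of all 3 lists overlapped CTCF in 74.3% (71.1 to 77.3) and MBD3 in 93.4% (91.5 to 95.05). Sites of TET1 and TET3 were close to these at 73.0% and 93.6%. By this overlap of at least 1 bp the single-list classes, whose sites were narrower, were lower. CTCF was at 62.1% (60.1 to 64.0) of TET1-only, 54.5% (47.3 to 61.6) of TET2-only and 53.1% (52.2 to 54.1) of TET3-only sites. MBD3 was at 69.4% (67.5 to 71.2), 54.5% and 79.1% (78.3 to 79.8). By this overlap the interval for MBD3 at TET1-only sites lay below that at TET3-only sites, and the interval for CTCF above it. The order for MBD3 was reversed when a DMSO summit within 200 bp was asked for instead. An MBD3 summit lay that close to 51.99% (49.95 to 54.02) of TET1-only and 46.99% (46.03 to 47.96) of TET3-only sites. For CTCF the order was kept, at 49.7% and 33.2%. Which of these classes had more MBD3 thus depended on the rule.

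For CTCF the overlap shares ran in opposite directions with peak strength at TET3-only sites and at sites of all 3 lists. At TET3-only sites outside regions of high local background, the CTCF share was 42.6% at a -log10 q under 2 and 65.7% (61.6 to 69.6) at 10 or more, and the MBD3 share 64.7% and 97.0% (95.3 to 98.3). Sites of all 3 lists, with the 19 of high local background kept, were ranked by the lowest -log10 q over the lists. They were divided into 5 equal parts of 158. Their CTCF share was 82.9% (76.1 to 88.4) in the weakest part and 62.7% (54.6 to 70.2) in the strongest. Their MBD3 share was 97.5% (93.6 to 99.3) and 92.4% (87.1 to 96.0), with intervals that overlap, and 86.7% (80.4 to 91.6) in the strongest but 1. At equal strength in the TET3 list the classes came closer in their CTCF share as peaks became stronger. At a TET3 -log10 q of 5 to 10, CTCF overlapped 82.7% (75.8 to 88.3) of 156 sites of all 3 lists and 61.9% (59.99 to 63.9) of TET3-only sites. At 10 or more it overlapped 71.0% (67.0 to 74.9) of 525 and 65.7% of 571 sites, with intervals that overlap. For MBD3 the shares were 95.5% (91.0 to 98.2) and 91.5% (90.4 to 92.6) at 5 to 10, and 93.5% (91.1 to 95.5) and 97.0% at 10 or more. The order of the classes thus changed for MBD3, with intervals that overlap in both ranges. When the lists were instead cut at a -log10 q of 10 and the classes rebuilt, sites of all 3 lists differed from TET3-only sites by -6.69 percentage points for CTCF and -6.27 for MBD3, against 21.2 and 14.4 over all peaks. After that cut 1212 sites counted as TET3-only, against 575 TET3-only sites of that strength before it, since weaker TET1 and TET2 peaks had been removed.

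Strong CTCF summits were more frequent at sites that lacked TET3. A DMSO CTCF summit with a fold enrichment of 50 or more lay within 200 bp of 14.3% of all sites. It did so for 674 of 2360 TET1-only sites (28.6%, 26.7 to 30.4), 63 of 198 TET2-only sites (31.8%, 25.4 to 38.8) and 26 of 62 sites of TET1 and TET2 (41.9%, 29.5 to 55.2). The share was 10.1% (9.50 to 10.7) at TET3-only sites, 15.3% (13.97 to 16.7) at sites of TET1 and TET3, and 16.7% (14.2 to 19.5) at sites of all 3 lists. The CTCF summits within 200 bp had a median fold enrichment of 64.7 at TET1-only and 78.0 at TET2-only sites, against 9.83 at TET3-only sites. TET1-only sites stood above TET3-only sites in each range of -log10 q. At TET1-only sites the share with a strong CTCF summit was 17.1% at a -log10 q under 2, 28.9% at 2 to 5, 44.8% at 5 to 10 and 66.7% (46.0 to 83.5) of 27 sites at 10 or more, and at TET3-only sites it was 9.01%, 10.4%, 11.3% and 5.25% (3.57 to 7.42). MBD3 summits within 200 bp had median fold enrichments of 5.06 at TET1-only, 4.91 at TET2-only and 4.86 at TET3-only sites.

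**Figure D4:**
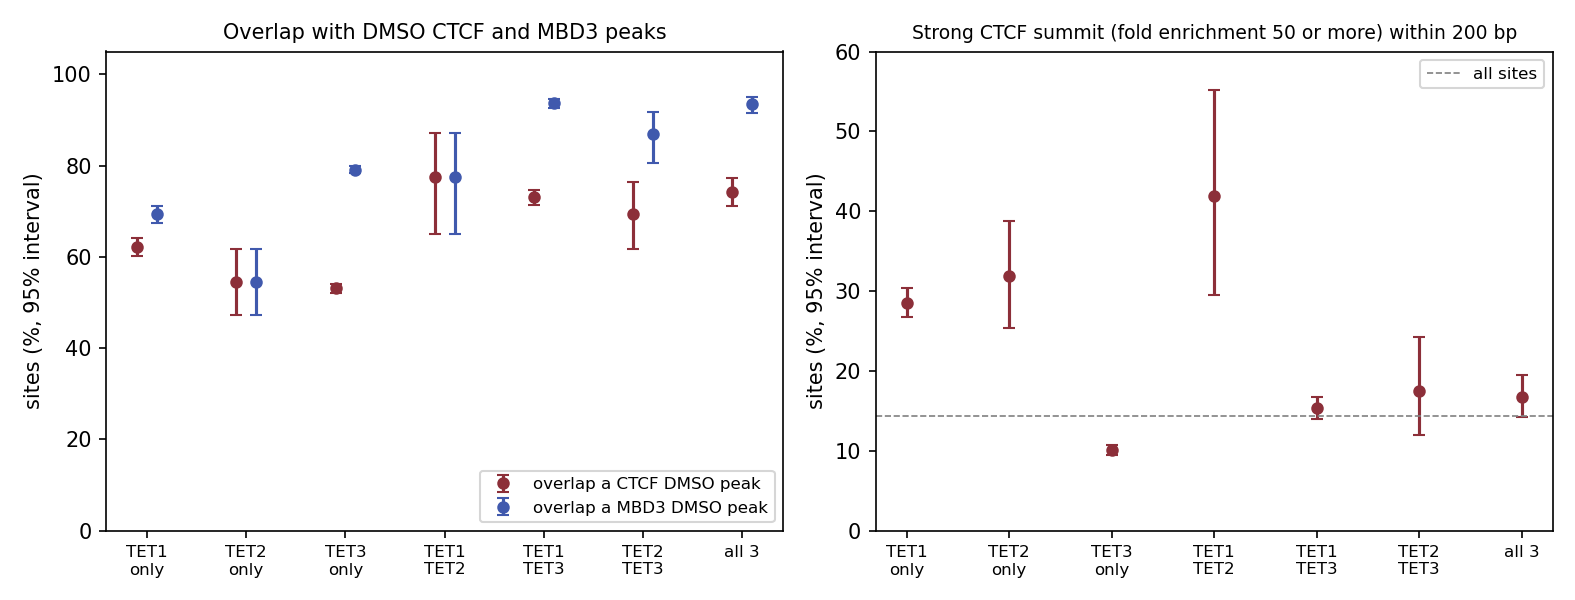
Left, the share of the sites of each class that overlap a CTCF or MBD3 peak of DMSO-treated parental cells. Right, the share with a DMSO CTCF summit of fold enrichment 50 or more within 200 bp, where the dashed line marks the 14.3% of all sites. Bars are exact 95% intervals for counting error, and TET1-only sites at 28.6% and TET2-only sites at 31.8% stand above TET3-only sites at 10.1%.

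At shared positions the signal was compared by CTCF strength too. The median log2 ratio of TET1 to TET3 relative pileup was -0.22 at 1259 positions with no CTCF summit within 200 bp, -0.12 at 618 positions with a CTCF fold enrichment under 10, -0.07 at 241 positions with 10 to 50, and 0.02 (quartiles -0.26 and 0.29) at 395 positions with 50 or more. The ratio of TET1 to TET3 was thus higher with each step of CTCF strength, over ranges of positions that overlap widely, and no test was made.

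The BPK-25 lists were used as a further readout of the same lines. Of all sites, 1.88% overlapped a peak of the BPK-25 TET1 list, 2.15% of the TET2 list and 31.0% of the TET3 list, which hold 447, 509 and 13360 peaks. Sites of all 3 DMSO lists were found again most often, in 26.2% (23.2 to 29.4), 31.1% (27.9 to 34.5) and 83.7% (80.9 to 86.2). In the strongest of the 5 parts these shares were 59.5%, 77.8% and 98.7%, and in the weakest 1.27%, 1.27% and 65.8%. Of the 2360 TET1-only sites, 11 (0.466%) were in the BPK-25 TET1 list and 590 (25%, 23.3 to 26.8) were in that of TET3, a share close to the 23.1% (22.3 to 23.9) of TET3-only sites. Of the 198 TET2-only sites, 28 (14.1%) were in the BPK-25 TET2 list and 64 (32.3%, 25.9 to 39.3) in that of TET3. Of those 28, 26 lay in regions of high local background.

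Sites without a TET3 peak under DMSO thus included sites with a TET3 peak in the same line under BPK-25. All 5 of the most significant TET1-only sites overlapped a BPK-25 TET3 peak, as did 4 of the 5 for TET2 and 3 of the 5 for TET3. Among TET1-only sites the share in the BPK-25 TET3 list was 49.7% (45.9 to 53.5) where a CTCF summit of fold enrichment 50 or more lay within 200 bp and 14.2% (12.3 to 16.3) where no CTCF summit did. At TET3-only sites the same shares were 44.9% (41.8 to 47.9) and 20.6% (19.6 to 21.5). Over all sites they were 53.5% (51.5 to 55.6) and 25.8% (24.9 to 26.7), so TET1-only sites on strong CTCF summits were close to the overall share and those without a CTCF summit below it. At sites of all 3 lists they were 89.4% (82.8 to 94.1) and 85.8% (81.8 to 89.2), with intervals that overlap. The split by CTCF was not made at equal peak strength. Outside high local background, the BPK-25 TET3 share of TET1-only sites was 18.8% at a -log10 q under 2 and 55.6% (35.3 to 74.5) of 27 sites at 10 or more. Strong CTCF summits were also more frequent at stronger TET1-only sites. At TET3-only sites the BPK-25 TET3 share was 13.8% and 44.8%, without such a rise in strong CTCF summits.

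**Figure D5:**
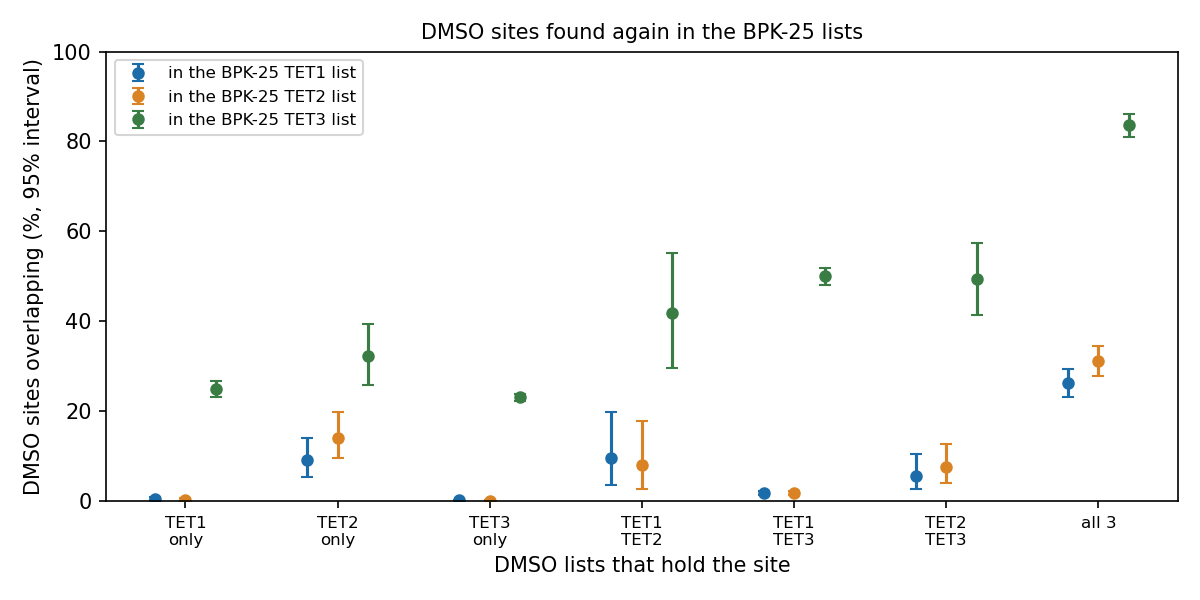
Share of the DMSO sites of each class that overlap a peak of the TET1, TET2 or TET3 list of BPK-25-treated cells, with exact 95% intervals for counting error. Sites of all 3 DMSO lists are highest for each BPK-25 list, at 26.2%, 31.1% and 83.7%, and 25% of TET1-only sites are in the BPK-25 TET3 list.

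Sites of all 3 lists were frequent in some parts of the genome. They fell in 459 of the 2370 windows of 1 Mb that held any site, and such a count is not given for the other classes. The window of chromosome 6 from 27 to 28 Mb alone held 34 sites of all 3 lists among 76 sites. The windows from 26 to 29 Mb on chromosome 6, where the large histone and transfer RNA gene clusters lie, held 66 of the 790 sites of all 3 lists (8.35%) against 48 of 2704 sites of TET1 and TET3 (1.78%), 26 of 2360 TET1-only sites (1.10%), 35 of 10446 TET3-only sites (0.335%) and 177 of all 16720 sites (1.06%). Next were chromosome 1 from 161 to 162 Mb with 17 sites of all 3 lists among 42 sites, and chromosome 19 from 50 to 51 Mb with 13 among 50. Windows on chromosomes 1, 14, 17 and X had 11 each, among 32, 32, 29 and 34 sites. Transfer RNA gene clusters also lie in the chromosome 1 window at 161 Mb and the chromosome 17 window at 8 Mb. No site was matched to a gene of these clusters.

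Regions of high local background made up 78 sites. They were 27 of the 198 TET2-only sites (13.6%) but 4 of 2360 TET1-only sites (0.169%), 8 of 10446 TET3-only sites (0.0766%) and 19 sites of all 3 lists (2.41%). Without them the TET2-only class had 171 sites, of which 62.0% overlapped a DMSO CTCF peak, 61.4% an MBD3 peak, and of which 2 were in the TET2 list and 48 in the TET3 list of BPK-25-treated cells. Some sites of 1 list lay near a peak of another. A TET3 summit lay within 500 bp of 114 TET1-only sites (4.83%) and within 1000 bp of 321 (13.6%). For TET2-only sites and TET3 summits these shares were 4.55% and 14.6%. A TET1 summit lay within 500 bp of 160 TET3-only sites (1.53%) and within 1000 bp of 572 (5.48%).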

How the data were processed

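The labels describe 53 samples in 18 groups. The input here was the authors' 10 deposited peak lists, 1 for each immunoprecipitated protein in each treatment, whose names were read as pooled replicates called against input. The TET2 DMSO list is named for 3 replicates although 2 immunoprecipitates were among the samples. The submitters' processing notes name MACS2 2.1.2, Bowtie2 2.3.4, bedtools 2.25.0, SAMtools 1.9, FastQC 0.11.7 and build hg19 without saying what each did. The deposited columns are a fold enrichment (a ratio), the -log10 of p and of q, and a summit offset in bp, all by the authors' peak caller. The lowest -log10 q in the TET lists was 1.30 to 1.31. Coordinates are 1-based.

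Each peak kept the summit of highest -log10 q. The pileup n and local background were solved from the fold enrichment, (n + 1) over (background + 1), and the Poisson p. Of pileups under 200, 100% were whole numbers to a tolerance of 0.02. The procedure was tested on simulated data. Python 3.11.15, numpy 2.4.6, pandas 2.3.3, scipy 1.17.1 and matplotlib 3.10.9 were used. Named regions are the 5 sites per class of highest -log10 q (for shared classes, of the lowest over the lists) on chromosomes 1 to 22 and X with a local background under 20 times the genome background, with sites taken from the 5 of highest fold enrichment in each list. Comparisons at equal strength, regions of the largest differences in pileup, those of high background, the windows, the fold enrichment of 50 for a strong CTCF summit and the gene names were chosen after values were seen. The members and comparisons were chosen with earlier results of these data known.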

Additional observations from a re-analysis of the deposited data

How the results depend on the processing

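No paired analysis was possible because each list pools the replicates of its group, so leaving out a replicate could not be tried either. Values are given in the order TET1 peaks in TET2 and in TET3, TET2 peaks in TET1 and in TET3, and TET3 peaks in TET1 and in TET2. A -log10 q of at least 5 gave 27.2%, 64.4%, 79.5%, 83.1%, 22.4% and 9.83%, and of at least 10 it gave 42.5%, 74.8%, 84.1%, 87.7%, 29.4% and 17.5%. The 1233 strongest peaks of each list gave 47.8%, 47.6%, 48.9%, 42.3%, 46.9% and 40.7%, and with peaks of high local background left out first, an alternative chosen after seeing the data, 47.4%, 47.1%, 48.3%, 41.6%, 46.5% and 40.4%. Summits within 200 bp gave 13.4%, 50.9%, 64.6%, 71.1%, 21.4% and 6.21%. An equal relative pileup gave 16.0% and 61.6% for TET1 and 26.8% and 7.79% for TET3, 50% coverage gave 56.1% for TET1 in TET3 and 23.5% for TET3 in TET1, and merging within 500 bp gave 25.7% for TET3 in TET1. The sites of all 3 lists numbered 469, 279, 429 and 408 under the first 4 of these alternatives, which keep fewer peaks, and stayed within 1.5 times 790 under the others.

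The difference between sites of all 3 lists and TET3-only sites changed with cuts on peak strength. The classes are rebuilt after each cut, so a site counts as TET3-only where its weaker TET1 or TET2 peak was removed. For CTCF it was 21.2 percentage points over all peaks, 2.59 and -6.69 at a -log10 q of at least 5 and 10, -2.46 and -0.17 with equal numbers of peaks before and after leaving out high background, 26.6 with 50% coverage and 17.6 with summits within 200 bp. For MBD3 it was 14.4, then -2.38, -6.27, -6.38, -4.78, 20.3 and 28.2, and 10.4 with an equal relative pileup. For the BPK-25 TET3 list it kept its direction, at 51.1, 38.5, 35.6 and 35.6 under the alternatives with fewer peaks and 57.6 with an equal relative pileup. The excess of strong CTCF summits at TET1-only over TET3-only sites, a comparison added after seeing the data, was 18.5 points. It was 29.8, 23.6, 25.2 and 25.4 with fewer peaks, 21.0 with an equal relative pileup and 15.2 with summits within 200 bp. At shared positions, fold enrichment in place of relative pileup gave a median log2 ratio of 0.047 for TET1 to TET2, which reverses its sign, -0.26 for TET1 to TET3 and -0.28 for TET2 to TET3. Of the class shares not listed here, 145 of 260 values stayed within the 95% interval of the main value, 72 were higher and 43 lower. With every list held to 6.40 times its genome background there were 8688 TET3-only, 1963 TET1-only and 208 TET2-only sites, so the order of these classes did not change. Read totals were not used, and the part of depth in the length of the TET2 list was not tested.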
